A study of Danio rerio with 6 samples.

Results

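The mRNAs of the mitochondrial respiratory chain were examined in zebrafish embryos treated with Tan I. The set was chosen by symbols starting with ndufa, ndufb, ndufc, ndufs, ndufv, sdha to sdhd, uqcr, cox4 to cox8, atp5 or mt-. These mark subunits and named assembly factors of complexes I to V, and subunits with other symbols were not included. The mean over the 6 libraries had to be at least 10 normalized reads. The set held 111 of the 21317 genes of the table, and all 111 were among the 20836 genes tested. The nuclear genome encodes 98 of them (87 subunits and 11 assembly factors) and the mitochondrial genome 13. All nuclear symbols other than ndufaf and sdhaf were counted as subunits, so the 87 include the inhibitors of ATP hydrolysis atp5if1a and atp5if1b. The rule used symbols and mean level only, but the set was chosen with earlier results of these data known.

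Tan I (Tanshinone I) is a lipid-soluble compound of the medicinal plant Salvia miltiorrhiza, and the study asked how it acts on normal and malignant blood formation. The Tan I group was embryos of the Tg(c-mybhyper:GFP) line kept in 60 µM Tan I from 30 to 72 hpf (hours post-fertilization), and the DMSO group was embryos of the same line kept in the solvent over the same period. Total RNA was extracted at 72 hpf, and 3 libraries per group were sequenced. The study's methods do not state whether mRNA was selected or rRNA removed. Both groups carry the hyperactive c-myb transgene, a model of overactive myeloid cell formation, so neither group is wild type. The labels name the material as embryonic cells while the protocol names embryos, and the number of embryos per library and whether libraries came from separate clutches were not stated. The p-values therefore measure only the spread between these libraries. In RNA of whole embryos, fewer cells of a type and less RNA per cell cannot be told apart.

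The respiratory chain sits in the inner mitochondrial membrane. Complex I (NADH dehydrogenase) and complex II (succinate dehydrogenase) pass electrons to coenzyme Q, complex III (the cytochrome bc1 complex) passes them to cytochrome c, and complex IV (cytochrome c oxidase) to oxygen. Complexes I, III and IV pump protons, and complex V (ATP synthase) uses the resulting gradient to make ATP. Complexes I, III, IV and V are built from subunits of both genomes, whereas complex II is encoded by the nucleus alone. In embryos, cells with a high demand for ATP, such as muscle and heart cells, are rich in these complexes.

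Each value below is a normalized read count, that is, reads per gene divided by a size factor of the library. The reads in the table ranged from 20451593 to 24932190 per library in the Tan I group and from 15874701 to 16959503 in the DMSO group. Every member had at least 9 reads in each library, and 104 of the 111 had a mean of at least 100. As transcript lengths were not used, levels were not compared between genes. Fold changes are Tan I over DMSO on the log2(value + 1) scale. They were fitted with limma over all 20836 genes, and a gene was called when its Benjamini-Hochberg adjusted p was under 0.05.

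No respiratory chain gene changed past this threshold. Of the 111 members 0 were called, against 536 genes (2.57%) over the whole table, of which 431 were higher and 105 lower in Tan I embryos. Counting tools run on the recovered reads, edgeR and DESeq2, also called 0 of the 111. The smallest limma adjusted p among the members was 0.223, for ndufa3. At an unadjusted limma p under 0.05 there were 7 members (6.31%), 6 of them higher and 1 lower in Tan I embryos, while 15.3% of all tested genes passed that level. The study used DESeq2, with a p value of at most 0.05 and a log2 fold change of 0.25 or more in size. Applied here to unadjusted limma p-values, these thresholds took in 2 members (1.80%), ndufa3 and sdhaf1, against 11.3% of all tested genes. In 6 members every Tan I library lay above every DMSO library (10.7% of all tested genes did), and in 2 members every Tan I library lay below (10.4% did). All of these member shares were under the share of the whole table.

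The fitted changes were small. The log2 fold changes of the members ran from -0.42 (cox7a1) to 0.34 (ndufa3), with a median of 0.030 and quartiles of -0.050 and 0.096. Over all tested genes the median was -0.0067 and the quartiles were -0.116 and 0.133. A total of 68 members lay above 0 and 43 below. Medians of single groups were close to 0, and most had no stable sign. On leaving out 1 library the median ran from -0.020 to 0.062 for the nuclear subunits together, from -0.011 to 0.070 for those of complex II, from -0.045 to 0.045 for complex IV and from -0.024 to 0.060 for complex V, and from -0.10 to 0.13 for the mitochondrial subunits of complex I. It stayed between 0.043 and 0.075 for the nuclear subunits of complex I. For the mitochondrial subunits of complex IV it stayed between 0.015 and 0.17, and for the assembly factors between 0.014 and 0.12. The 95% interval of the fold change stayed within 2-fold in either direction for 111 of 111 members, against 91.2% of all tested genes. It stayed within 1.5-fold for 101 of the members (91.0%), against 71.8% of all tested genes. The members had a median of 1611 normalized reads against 270 over all tested genes, and genes with more reads have narrower intervals. Among genes with a mean of at least 1000, a level chosen after the data were seen, 96.1% of 76 members and 96.1% of 3680 genes had intervals within 1.5-fold. Intervals within 2-fold were found there for 100% of members and 99.2% of genes. In that range 3.804% of all genes and 0 of the 76 members were called. The quartiles of the log2 fold change there were -0.106 and 0.041 for all genes, and -0.049 and 0.085 for the members. The higher share of members with intervals within 1.5-fold was therefore not seen once levels were matched. Other shares still differed in that range. An unadjusted limma p under 0.05 was seen for 5.26% of members and 18.4% of all genes. A log2 fold change of 0.25 or more in size was seen for 2.63% of members and 7.66% of all genes. The median coefficient of variation there was 8.11% for members and 5.79% for all genes in Tan I embryos, and 4.84% and 4.82% in DMSO embryos.

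**Figure D1:**
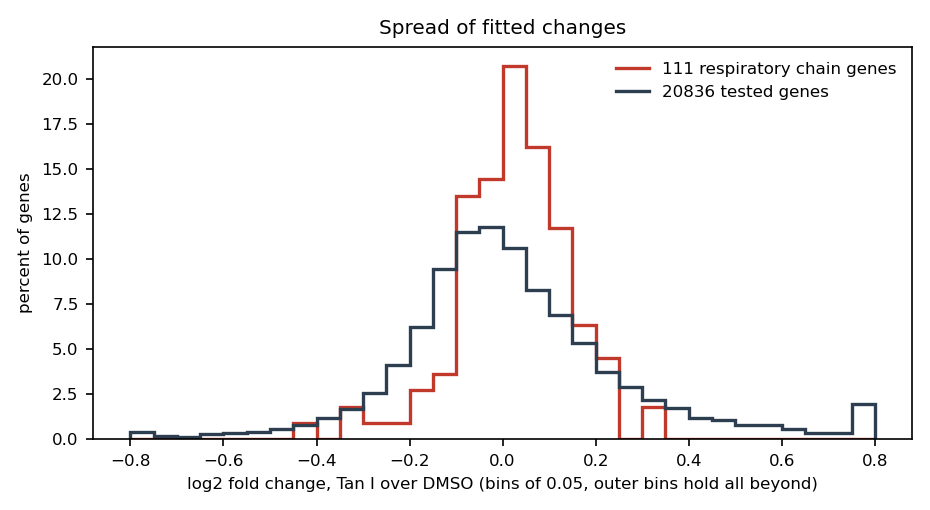
Histogram of fitted log2 fold changes, Tan I over DMSO, as the percent of genes per bin, for the 111 respiratory chain genes (red) and for the 20836 tested genes (dark blue). The members bunch around a median of 0.030 between -0.42 and 0.34, while the tested genes spread wider, with quartiles of -0.116 and 0.133. Levels are not matched here. Among genes with a mean of at least 1000, the quartiles were -0.106 and 0.041 for all genes and -0.049 and 0.085 for members.

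The 38 nuclear subunits of complex I, the entry point for electrons from NADH, had a median log2 fold change of 0.047, with 27 above 0 and 11 below, and none was called. The N module, which oxidizes NADH, was represented by 7 genes with a median of 0.080. The Q module, which hands electrons to coenzyme Q, was represented by 10 genes with a median of 0.038, and the other 21 subunits had a median of 0.058. These medians lie close to each other, and no member of the N or Q module was called.

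The gene ndufa3 encodes a small accessory subunit of the membrane arm. It had 651, 740 and 699 normalized reads in the Tan I libraries, against 447, 532 and 693 in the DMSO libraries. The lowest Tan I library and the highest DMSO library overlapped, since DMSO replicate 3 lay among the Tan I values. The log2 fold change was 0.34 ± 0.13 (SE, 95% interval 0.062 to 0.62), at an adjusted p by limma of 0.223. Without DMSO replicate 3 the log2 fold change was 0.51 and the limma adjusted p was 0.0266, while over all alternatives its adjusted p ranged from 0.0266 to 0.501. This was the only member that any alternative called.

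Outside the naming rule, complex I members at an unadjusted p under 0.05 were picked out after their values were seen. For ndufa7, an accessory subunit, the Tan I libraries had 642, 666 and 646 normalized reads and the DMSO libraries 514, 568 and 611, so the groups did not overlap, and the log2 fold change was 0.21 ± 0.08 (SE), at an adjusted p by limma of 0.256. The gene ndufab1a encodes an acyl carrier protein that is also a complex I subunit. It had 1494, 1341 and 1366 normalized reads in Tan I embryos and 1253, 1254 and 1247 in DMSO embryos, a log2 fold change of 0.16 ± 0.07 (SE), at an adjusted p by limma of 0.287. The 3 DMSO libraries were nearly equal and the lowest Tan I library stood above them. The gene ndufb9, a membrane arm subunit, had 2516, 2314 and 2369 normalized reads in Tan I embryos and 1979, 1997 and 2377 in DMSO embryos, and here DMSO replicate 3 exceeded 2 of the Tan I libraries. Groups also stood apart, Tan I above, for ndufa10 and ndufb7, with log2 fold changes of 0.076 and 0.13.

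At the other end of complex I was ndufb3, another accessory subunit of the membrane arm. It had 820, 1439 and 1287 normalized reads in Tan I embryos and 1404, 1379 and 1361 in DMSO embryos. A single library, Tan I replicate 1, was far below the other 5. The log2 fold change was -0.27 ± 0.15 (SE, 95% interval -0.60 to 0.065), at an adjusted p by limma of 0.441, and -0.02 without Tan I replicate 1. The nuclear complex I member with the most reads, ndufv1, which binds NADH, had 5722, 6497 and 6137 normalized reads in Tan I embryos and 6592, 6249 and 5774 in DMSO embryos. Its groups overlapped fully, and the interval of its log2 fold change was -0.18 to 0.14. Members with ndufa4 symbols were counted with complex I by name, although in mammals NDUFA4 belongs to complex IV, and their log2 fold changes were -0.093 (ndufa4), 0.084 (ndufa4l) and 0.22 (ndufa4l2a). The 7 complex I assembly factors with ndufaf symbols, which help build the complex and do not stay in it, had a median of 0.016, between -0.13 (ndufaf5) and 0.14 (ndufaf2).

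Complex II, which oxidizes succinate, had 5 subunit genes with a median log2 fold change of 0.030, 3 above 0 and 2 below. The flavoprotein subunit sdha, with the most reads of the 5, had 5221, 5416 and 5146 normalized reads in Tan I embryos and 5695, 5254 and 4929 in DMSO embryos. The DMSO libraries spanned the Tan I libraries on both sides, and the interval of the log2 fold change was -0.15 to 0.14. The iron-sulfur subunit sdhb lay outside the naming rule and was picked out after its values were seen. It had 3470, 3257 and 3141 normalized reads in Tan I embryos and 3176, 2823 and 2892 in DMSO embryos. Of the DMSO libraries 1 lay above the lowest Tan I library, and the log2 fold change was 0.15 ± 0.07 (SE, adjusted p by limma 0.325). The membrane anchor sdhc had 946, 1295 and 1284 normalized reads in Tan I embryos and 1225, 1254 and 1242 in DMSO embryos. Again Tan I replicate 1 was lowest, and the log2 fold change was -0.093 ± 0.11 (SE), or 0.055 without it.

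All 4 complex II assembly factors lay above 0, with a median of 0.17, and 0 were called. The gene sdhaf1 encodes a factor needed to mature the iron-sulfur subunit. It had 174, 205 and 172 normalized reads in Tan I embryos and 138, 148 and 155 in DMSO embryos. All 3 Tan I libraries exceeded all 3 DMSO libraries, and the log2 fold change was 0.32 ± 0.13 (SE, 95% interval 0.048 to 0.59), at an adjusted p by limma of 0.240. For sdhaf2, which attaches the flavin to the flavoprotein subunit, the log2 fold change was 0.19 ± 0.10 (SE), with intervals for sdhaf2, sdhaf3 and sdhaf4 that included 0.

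Complex III was represented by 7 nuclear subunit genes with uqcr symbols. Their median log2 fold change was -0.054, and 1 lay above 0 and 6 below. Without Tan I replicate 1 the median was 0.016. The core subunit uqcrc1, with the most reads of the 7, had 6795, 7650 and 7724 normalized reads in Tan I embryos and 7928, 7550 and 7498 in DMSO embryos, with an interval for the log2 fold change of -0.20 to 0.096. Its groups overlapped in all but Tan I replicate 1. The small subunit uqcr10 had 801, 1479 and 1555 normalized reads in Tan I embryos and 1215, 1485 and 1526 in DMSO embryos. Replicate 1 was lowest in both groups, and the log2 fold change was -0.19 ± 0.19 (SE), or 0.11 without Tan I replicate 1. The member above 0 was uqcrq, a small subunit near cytochrome b, with 1180, 1374 and 1373 normalized reads in Tan I embryos, against 936, 1143 and 1445 in DMSO embryos, and a log2 fold change of 0.18 ± 0.13 (SE). This value was 0.023 without DMSO replicate 1 and 0.34 without DMSO replicate 3.

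Complex IV, the oxygen-consuming step, had 18 nuclear subunit genes with a median log2 fold change of 0.0077, 10 above 0 and 8 below. In vertebrates several of its subunits exist as isoforms, some of them typical of heart and skeletal muscle. The gene cox7a1, a muscle-type isoform in mammals, had 63.7, 79.6 and 70.6 normalized reads in Tan I embryos and 70.5, 94.7 and 129 in DMSO embryos. The DMSO libraries were widely spread and overlapped the Tan I libraries at their lower end. The log2 fold change was -0.42 ± 0.21 (SE, 95% interval -0.87 to 0.038), at an adjusted p by limma of 0.372, and -0.20 without DMSO replicate 3 or -0.63 without DMSO replicate 1. The muscle-type isoform cox6a2 had 61.4, 65.5 and 68.0 normalized reads in Tan I embryos and 65.9, 86.2 and 93.4 in DMSO embryos, a log2 fold change of -0.31 ± 0.18 (SE), at an adjusted p by limma of 0.438. The third muscle-type isoform, cox8b, had 107, 174 and 175 normalized reads in Tan I embryos and 138, 161 and 191 in DMSO embryos (log2 fold change -0.13 ± 0.19, SE, or 0.11 without Tan I replicate 1). These 3 isoforms had few reads, and 0 were called. The 27 tested marker genes of skeletal muscle had a median log2 fold change of 0.0060 with 0 called.

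The gene cox6b1 encodes a subunit of complex IV that faces the intermembrane space. It had 1321, 1331 and 1390 normalized reads in Tan I embryos and 1455, 1490 and 1566 in DMSO embryos. Every Tan I library lay below every DMSO library, and the log2 fold change was -0.16 ± 0.07 (SE, 95% interval -0.30 to -0.014), at an adjusted p by limma of 0.277. Its partner cox6b2 had 4006, 4542 and 4546 normalized reads in Tan I embryos and 3856, 4135 and 4404 in DMSO embryos, with overlapping groups and a log2 fold change of 0.079 ± 0.07 (SE). The log2 ratio of cox6b2 to cox6b1 was 1.599, 1.77 and 1.71 in Tan I embryos and 1.41, 1.47 and 1.49 in DMSO embryos, a difference of 0.24 with no overlap.

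Such ratios were computed for 16 pairs of paralogs within the set, of which those outside complex IV were chosen after values were seen. With 3 libraries against 3, an exact 2-sided permutation test cannot give a p below 0.1. The pairs that reached it, with a Benjamini-Hochberg adjusted p over the 16 pairs of 0.533, were cox6b2 over cox6b1, cox5ab over cox5aa (difference -0.094) and ndufab1b over ndufab1a. The last ratio was -0.087, 0.35 and 0.35 in Tan I embryos and 0.44, 0.39 and 0.49 in DMSO embryos on the log2 scale, a difference of -0.24 in which Tan I replicate 1 was far from the other Tan I libraries. The gene cox4i2, a hypoxia-type isoform in mammals, had 360, 463 and 412 normalized reads in Tan I embryos and 438, 384 and 448 in DMSO embryos. Its log2 ratio to the common form cox4i1 differed by -0.014 between the groups (exact permutation p 0.8). The common form cox4i1 itself had a log2 fold change of -0.030 with an interval of -0.20 to 0.14. Reads were kept only where they mapped to a single place, so counts of near-identical paralogs are uncertain. The remaining isoforms of complex IV had log2 fold changes of 0.071 (cox5aa), -0.023 (cox5ab), 0.062 (cox5b2), 0.096 (cox6a1), 0.031 (cox7a2a), 0.0031 (cox7a2l), -0.069 (cox8a) and 0.012 (cox4i1l). The highest of the nuclear complex IV members was cox7c at 0.13 ± 0.10 (SE), with a range of 0.053 to 0.24 on leaving out 1 library.

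Complex V, which makes ATP, had 19 nuclear genes with a median log2 fold change of -0.0031, 9 above 0 and 10 below. The catalytic beta subunit atp5f1b, the nuclear member with the most reads, had 30964, 39328 and 36957 normalized reads in Tan I embryos and 44084, 40599 and 38020 in DMSO embryos. Tan I replicate 1 was the lowest library and DMSO replicate 1 the highest. The log2 fold change was -0.20 ± 0.10 (SE, 95% interval -0.41 to 0.012), at an adjusted p by limma of 0.358, and -0.099 without Tan I replicate 1. The membrane subunit gene atp5l had 2171, 3870 and 3741 normalized reads in Tan I embryos and 3989, 4028 and 3859 in DMSO embryos. Here too a single library, Tan I replicate 1, set the difference, and the log2 fold change was -0.33 ± 0.16 (SE, adjusted p by limma 0.366), or -0.06 without it. The epsilon subunit atp5f1e, a small part of the central stalk, had 1062, 1314 and 1254 normalized reads in Tan I embryos and 854, 988 and 1257 in DMSO embryos. Its groups overlapped through DMSO replicate 3 and its log2 fold change was 0.24 ± 0.12 (SE, adjusted p by limma 0.381), or 0.11 without DMSO replicate 1 and 0.39 without DMSO replicate 3. For the inhibitors of ATP hydrolysis atp5if1a and atp5if1b the log2 fold changes were -0.13 ± 0.17 and 0.027 ± 0.13 (SE).

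**Figure D2:**
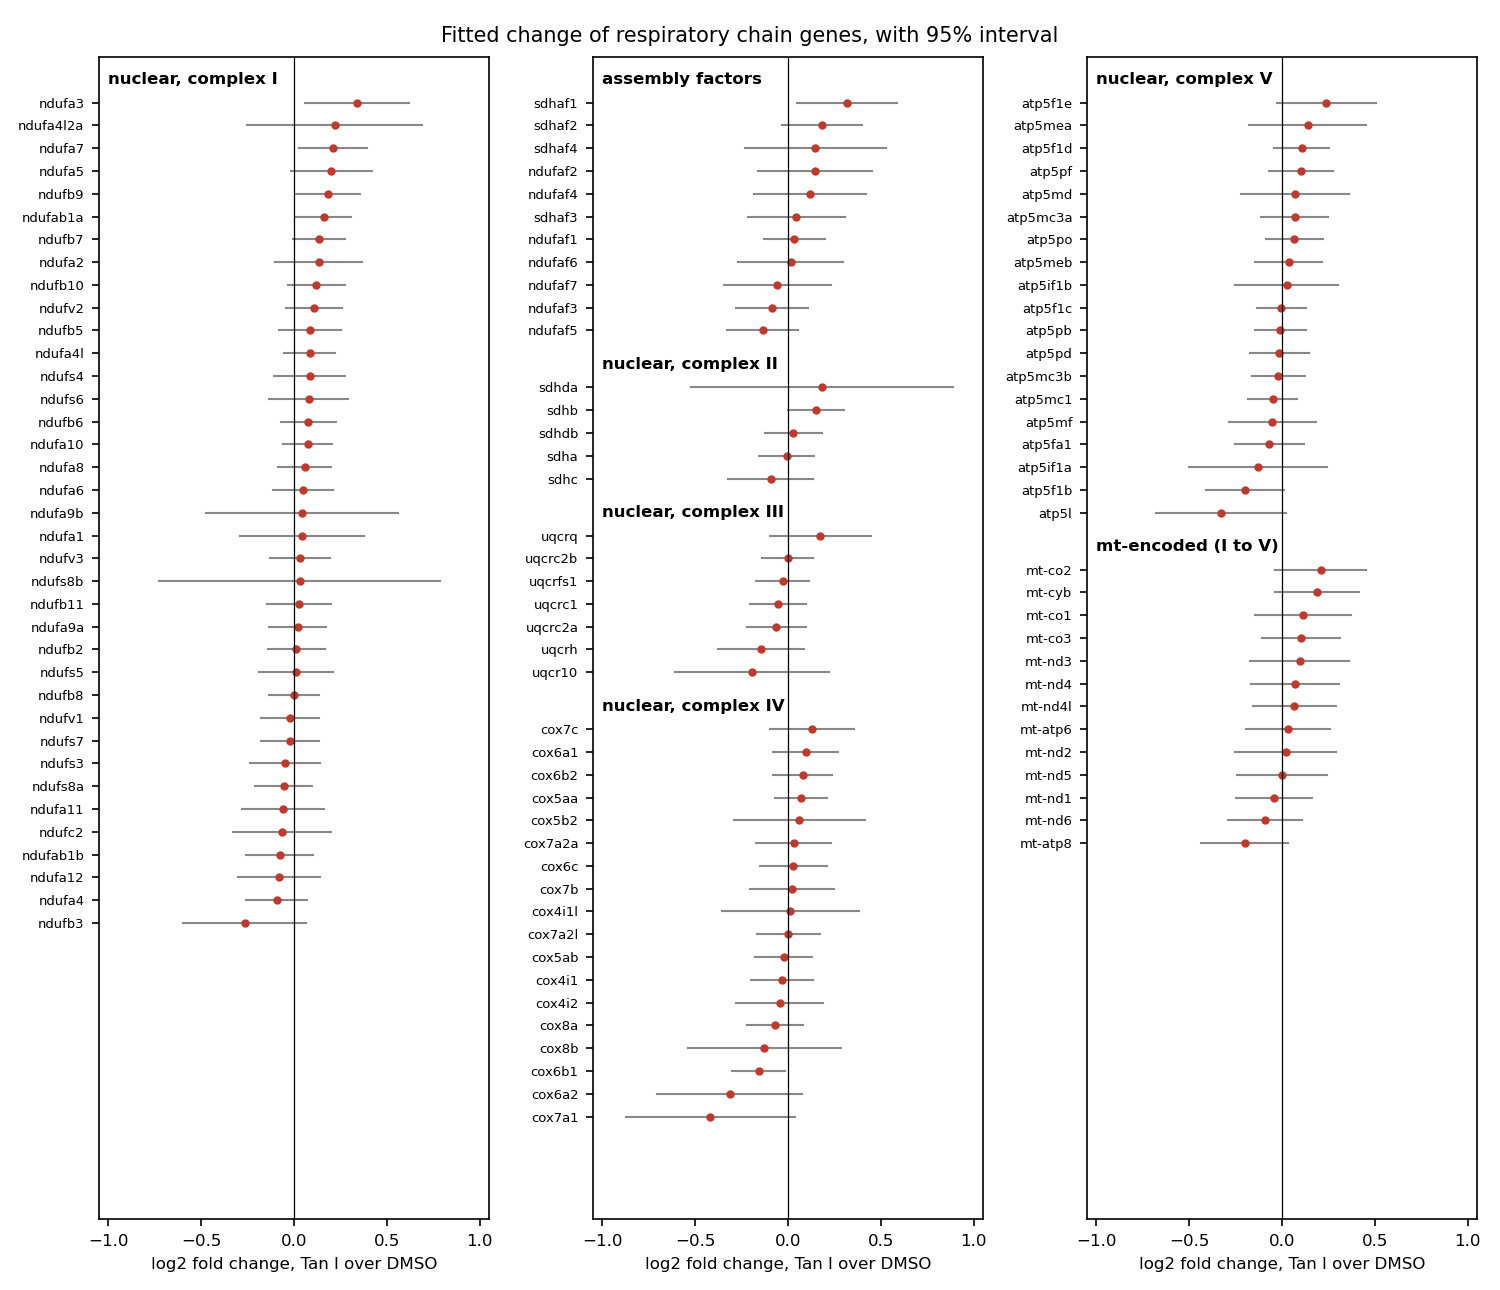
Fitted log2 fold change, Tan I over DMSO, of 110 of the 111 respiratory chain genes (points) with its 95% interval (lines), grouped by complex and encoding. Intervals that exclude 0 belong to 7 genes, 6 above and 1 below (cox6b1), and no gene passed the adjusted threshold.

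**Figure D3:**
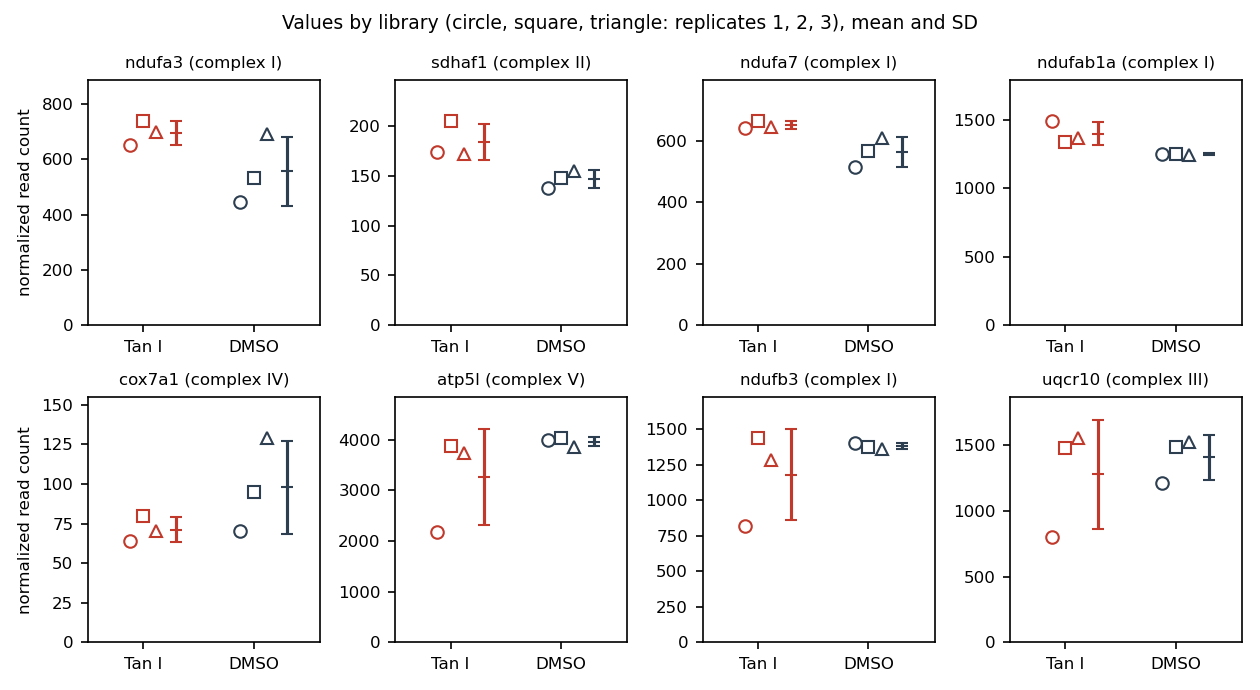
Normalized read counts of 8 members in each library, Tan I left and DMSO right (circle, square and triangle for replicates 1, 2 and 3, bars for the mean and SD of 3 libraries). Tan I and DMSO libraries are apart for sdhaf1, ndufa7 and ndufab1a, while Tan I replicate 1 lies far below all others for atp5l, ndufb3 and uqcr10.

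The 13 mitochondrially encoded mRNAs specify core subunits of complexes I, III, IV and V, and 0 of 13 were called. Their median log2 fold change was 0.067, with 10 above 0 and 3 below, and it was -0.065 without Tan I replicate 1. Together they took 4.24%, 3.33% and 3.62% of the reads of the table in Tan I embryos and 3.21%, 3.34% and 3.74% in DMSO embryos. The Wilson 95% interval of each of these shares spanned at most 0.0181 percentage points, which covers counting error only. The means were 3.73 ± 0.464% in Tan I embryos and 3.43 ± 0.274% in DMSO embryos (SD, n = 3 each), a difference within the spread of the libraries. The 87 nuclear subunits together took 1.346%, 1.498% and 1.494% in Tan I embryos and 1.46%, 1.43% and 1.48% in DMSO embryos. The ratio of the mitochondrial to the nuclear sum was 3.15, 2.22 and 2.42 in Tan I embryos and 2.21, 2.33 and 2.53 in DMSO embryos, and the groups overlapped.

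Among the mitochondrial subunits of complex IV, mt-co2, which takes electrons from cytochrome c, had 95903, 74350 and 72422 normalized reads in Tan I embryos and 64199, 68674 and 75792 in DMSO embryos. Tan I replicate 1 was the highest library, and DMSO replicate 3 exceeded the other Tan I libraries. The log2 fold change was 0.21 ± 0.11 (SE, 95% interval -0.037 to 0.46), at an adjusted p by limma of 0.414, and 0.08 without Tan I replicate 1. The catalytic subunit mt-co1 had 267335, 210914 and 211554 normalized reads in Tan I embryos and 204156, 203824 and 226753 in DMSO embryos (log2 fold change 0.11 ± 0.12, SE, and near 0 without Tan I replicate 1). For mt-co3, a structural core subunit, the log2 fold change was 0.10 ± 0.10 (SE), or 0.015 without Tan I replicate 1. Cytochrome b of complex III, mt-cyb, had 90127, 69933 and 73476 normalized reads in Tan I embryos and 64085, 67872 and 72016 in DMSO embryos. It overlapped by Tan I replicate 2 alone, and the log2 fold change was 0.19 ± 0.10 (SE, adjusted p by limma 0.422), or 0.078 without Tan I replicate 1.

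The 7 mitochondrial subunits of complex I, which form its proton-pumping core, had log2 fold changes from -0.089 (mt-nd6) to 0.097 (mt-nd3) with overlapping groups in all 7. The others were mt-nd1 at -0.042, mt-nd5 at 0.0014, mt-nd2 at 0.020, mt-nd4l at 0.067 and mt-nd4 at 0.070. In complex V, mt-atp6, the proton channel subunit, had 81103, 61699 and 64616 normalized reads in Tan I embryos and 65759, 66756 and 68793 in DMSO embryos (log2 fold change 0.033 ± 0.10, SE). The small subunit mt-atp8 had 222, 248 and 252 normalized reads in Tan I embryos and 304, 259 and 269 in DMSO embryos. All Tan I libraries lay below all DMSO libraries, with a log2 fold change of -0.20 ± 0.11 (SE, 95% interval -0.44 to 0.033), at an adjusted p by limma of 0.410. The genes mt-atp8 and mt-atp6 overlap, as do mt-nd4l and mt-nd4, and mt-nd6 lies on the other strand than most. The use of strand in counting was not stated, so the values of these genes are uncertain.

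**Figure D4:**
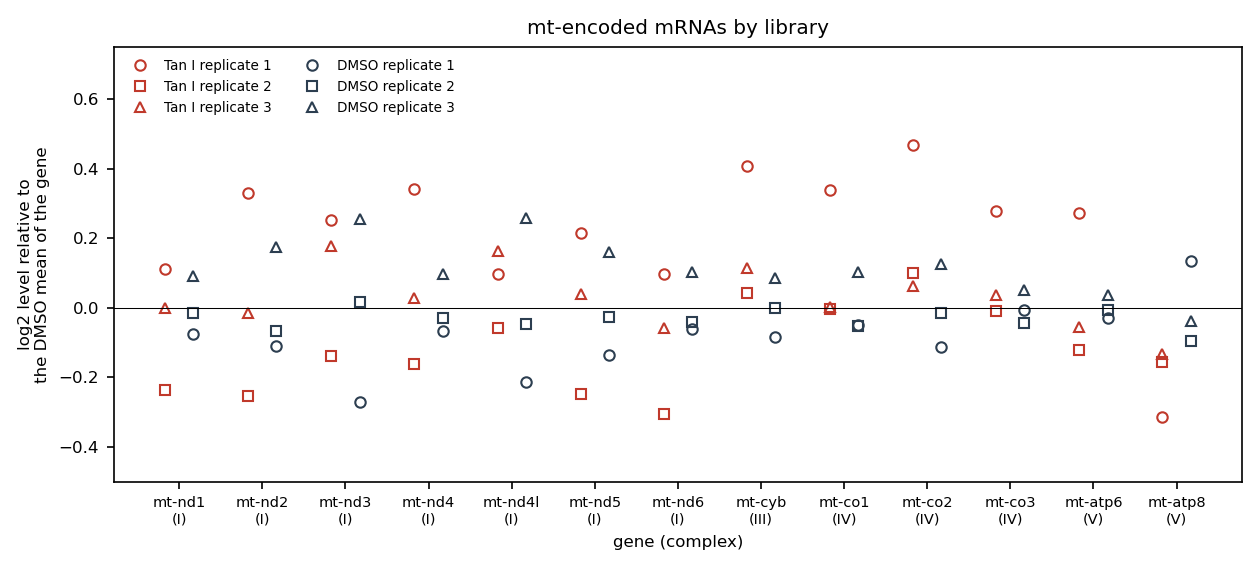
Level of each of the 13 mitochondrially encoded mRNAs in each library, as the log2 difference from the mean of the DMSO libraries for that gene (Tan I red and left, DMSO dark blue and right, circle, square and triangle for replicates 1, 2 and 3). Tan I replicate 1 is the highest Tan I library for 11 of 13 genes and Tan I replicate 2 the lowest for 11 of 13.

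The libraries of a group differed from each other in the respiratory chain genes in a shared way. In Tan I replicate 1, the most deeply sequenced library, the median log2 deviation from the Tan I mean was 0.213 over the mitochondrial mRNAs and -0.088 over the nuclear subunits, and near 0 over all tested genes. By complex the nuclear median in that library was -0.043 for complex I, -0.043 for complex II, -0.126 for complex III, -0.122 for complex IV and -0.145 for complex V. It was the lowest Tan I library for 56 of the 87 nuclear subunits, against 36.6% of all tested genes, and the highest for 11 of the 13 mitochondrial mRNAs, against 35.3% of all tested genes. In Tan I replicate 2 both lay on the other side, at -0.15 and 0.073, with 11 of 13 mitochondrial mRNAs at their lowest Tan I value. Among the DMSO libraries, replicate 3 was highest for 12 of the 13 mitochondrial mRNAs and for 53 of the 87 nuclear subunits, against 34.9% of all tested genes. These counts are descriptions of single libraries and carry no test.

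Marker genes of tissues also departed from the group mean in single libraries. In Tan I replicate 1 the median log2 deviation was 0.14 for 16 erythroid markers, 0.13 for 16 liver and yolk layer markers, 0.093 for 14 ionocyte markers and 0.072 for 27 skeletal muscle markers. It was -0.050 for 11 heart markers, -0.040 for 18 nervous system markers and -0.030 for 17 granulocyte and macrophage markers in the same library. In Tan I replicate 3 the muscle markers were at -0.18. Every marker tested had reads in all 6 libraries. The summed level of the erythroid markers ranged from 43561 to 44933 in Tan I embryos and from 49042 to 56140 in DMSO embryos, and that of the liver and yolk layer markers from 215054 to 255429 in Tan I embryos and from 226702 to 247560 in DMSO embryos. The muscle sum ranged from 1197320 to 1463840 in Tan I embryos and from 1275960 to 1469330 in DMSO embryos. Between the groups, 2.57% of all tested genes were called. Of the 16 erythroid markers 1 rose and 3 fell, among them hbae5 at -1.26, although globin genes are near-identical copies. The riser, the embryonic globin gene hbbe3 (log2 fold change 2.82), had only 12.2 to 24.3 normalized reads in DMSO embryos. By sign 3 erythroid markers lay above 0 and 13 below, with a median log2 fold change of -0.21. At an unadjusted limma p under 0.05 there were 9 of the 16 (56.25%), 2 higher and 7 lower. Of the 16 liver and yolk layer markers 0 rose and 4 fell, among them the transport proteins ttr at -1.35 and tfa at -0.73. By sign 8 of the 16 lay above 0 and 8 below, with a median log2 fold change of 0.00024. An unadjusted limma p under 0.05 was seen for 6 of the 16 (37.5%), 1 higher and 5 lower. Ionocytes are rich in mitochondria, and of their markers 2 rose and 0 fell, namely the ammonia transporter gene rhcgb (log2 fold change 0.91) and the sodium pump gene atp1a1a.5 (0.71). Of the 14 ionocyte markers 4 lay above 0 and 10 below, with a median log2 fold change of -0.020. An unadjusted limma p under 0.05 was seen for 4 of them (28.6%), 2 higher and 2 lower. The ionocyte sum ranged from 25920 to 29510 in Tan I embryos and from 25184 to 29338 in DMSO embryos. Of the nervous system markers gfap rose (0.26) and 0 fell, and 15 of the 18 had a log2 fold change below 0. An unadjusted limma p under 0.05 was seen for 6 of the 18 (33.3%), 2 higher and 4 lower, against 15.3% of all tested genes. Of the heart, skeletal muscle, and granulocyte and macrophage markers 0 were called. Yet 14 of the 17 granulocyte and macrophage markers lay above 0, with a median log2 fold change of 0.23. At an unadjusted limma p under 0.05 there were 9 of them (52.9%), 8 higher and 1 lower, against 15.3% of all tested genes. The marker lists were chosen with earlier results of these data known, so these counts are descriptions. The sums ranged from 74419 to 82824 in Tan I embryos and from 81640 to 84971 in DMSO embryos for nervous system markers, and from 11070 to 11789 in Tan I embryos and from 11183 to 11465 in DMSO embryos for heart markers. For granulocyte and macrophage markers they were 5760, 8792 and 4887 in Tan I replicates 1, 2 and 3, and ranged from 4330 to 4587 in DMSO embryos. The high value came from Tan I replicate 2 alone. The part of these tissues in the respiratory chain values was not tested.

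**Figure D5:**
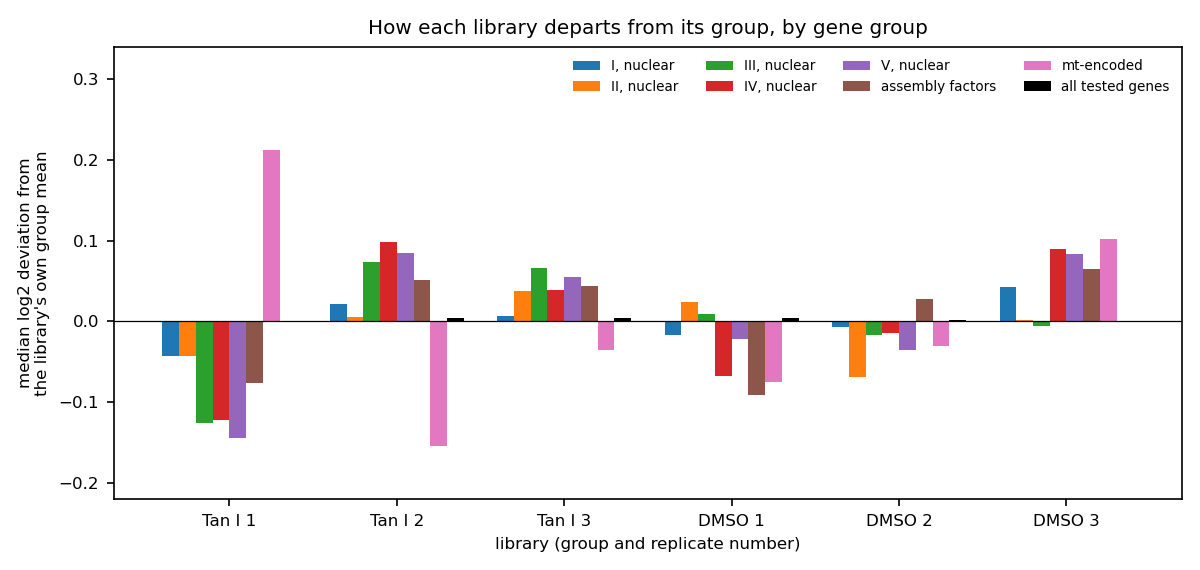
Median log2 deviation of each library from the mean of its own group, for nuclear subunits of complexes I to V, assembly factors, mitochondrially encoded mRNAs and all tested genes (bars, Tan I libraries left and DMSO libraries right). Tan I replicate 1 has the mitochondrial mRNAs at 0.213 and the nuclear subunits of every complex below 0, between -0.145 and -0.043, with all tested genes near 0.

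Genes that work beside the respiratory chain were counted from lists of mitochondrial and energy metabolism genes. The lists were written with earlier results of these data known, so the counts are descriptions and carry no test. Over all tested genes 2.57% were called, 431 higher and 105 lower. A single called gene in a list of 10 to 25 genes describes that gene and not the list. Among 25 tested assembly factors of complex IV, 1 rose and 0 fell. This was higd1a, a small protein of the inner membrane that associates with the chain and responds to low oxygen. It had 952, 1022 and 956 normalized reads in Tan I embryos and 779, 809 and 782 in DMSO embryos, a log2 fold change of 0.31 ± 0.07 (SE), at an adjusted p by limma of 0.0402. No gene was called among 7 further complex I assembly factors, 6 of complex III and 4 of complex V, nor among 20 genes for electron carriers and coenzyme Q.

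Of 10 carriers of adenine nucleotides and phosphate and uncoupling proteins, 1 rose and 0 fell. The uncoupling protein gene ucp2 had 7545, 6930 and 5933 normalized reads in Tan I embryos, against 4693, 4402 and 4039 in DMSO embryos. All Tan I libraries were above all DMSO libraries, and the log2 fold change was 0.63 ± 0.09 (SE), at an adjusted p by limma of 0.00151. Of 13 genes in a list for the removal of superoxide and peroxide, not all of which act on these directly, 1 rose. This was gsr, glutathione reductase, with 1091, 933 and 1035 normalized reads in Tan I embryos and 539, 582 and 583 in DMSO embryos (log2 fold change 0.84 ± 0.08, SE, adjusted p by limma 7.04e-05). Of 29 genes of the hypoxia response 3 rose and 0 fell, beside 2.57% called over all tested genes. The 3 were egln1a, an oxygen sensor (log2 fold change 1.08 ± 0.16, SE), adma, the adrenomedullin gene (0.90 ± 0.18, SE), and higd1a again. The hypoxia list shares cox4i2 with the respiratory chain set.

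The remaining lists had 0 called genes each. The median log2 fold change was 0.025 for 32 genes of the tricarboxylic acid cycle and pyruvate dehydrogenase, which supply the chain with NADH and succinate, and -0.039 for 40 genes of glycolysis. It was -0.027 for 74 mitochondrial ribosomal proteins and -0.074 for 24 genes of mitochondrial transcription and RNA processing, both needed to express the mitochondrial genome. For 45 mitochondrial chaperones, proteases and import factors it was -0.042, for 16 nuclear regulators of mitochondrial genes -0.024, and for 25 genes of the integrated stress response 0.11. In this last list 9 genes (36%) had an unadjusted limma p under 0.05, 7 higher and 2 lower, against 15.3% of all tested genes. A limma adjusted p above 0.05 does not show that these genes, or the 111 respiratory chain genes, were equal in both groups, and the intervals given for each gene bound the size of a difference.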

How the data were processed

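The deposited signal values are reads counted per gene and scaled by the authors with a size factor for each library. The study's methods describe paired-end reads of 150 bases. The submitters' notes name STAR, featureCounts, DESeq2 and GRCz11, and the study removed reads mapping to more than 1 place. Tool versions were not given in the sources used here, nor was the use of strand. The authors also deposited their own comparison (a log2 fold change with its error, a test score and p-values), which was not used. Each value was a whole multiple of 1 step per library, and division by it gave whole reads for 100% of values (tolerance 0.01). Summed over the table these reads gave the depth, 15874701 to 24932190 per library, which limits weak genes most.

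The groups came from the sample titles. The log2(value + 1) scale was used, on which changes of weak genes appear smaller, and 20836 genes with a mean of at least 10 were tested (481 left out) in limma 3.58.1 (lmFit, eBayes with a trend, no covariates, 2-sided) under R 4.3.3. As the deposited values are normalized, edgeR 4.0.16 and DESeq2 1.42.0 were run on recovered reads as alternatives, as were other pseudocounts, filters, scalings and weights, thinning to equal depth, a replicate block, and leaving out each library. Scripts were tested on simulated data. The members and lists were chosen with earlier results of these data known. Named members were all mitochondrial genes, the highest, lowest and strongest nuclear member per complex, and complex IV isoforms, and in each other list up to 3 called genes per direction. Some further members, among them ndufa7 and sdhb, are described outside this rule. Of the 111 members, 110 had their ID in a separate table of gene names. The table held 0 rows for mitochondrial rRNAs or tRNAs and 5 rows without a symbol. No coordinates are given, and 1 member, included in all counts, is not reported here by name.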

Additional observations from a re-analysis of the deposited data

How the results depend on the processing

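Over 19 alternatives and 41 named members, 716 of 776 values kept their direction and their side of the threshold, 58 changed sign (35 of them on leaving out a library) and 2, both of ndufa3, passed the threshold. In 19 named members the sign did not change under any of them. The count over the whole table was 165 without the trend, 984 with sample quality weights and 1093 with the replicate block, and 213 to 709 without 1 library. The count of members called was 1 with the replicate block (ndufa3, adjusted p 0.0490) and 0 to 1 without 1 library, the 1 being ndufa3 without DMSO replicate 3. Samples with the same replicate number were not shown to be paired: their deviations from the group means correlated at 0.081, -0.029 and 0.21. For samples with different numbers the correlations ran from -0.18 to 0.10. The median of complex I nuclear subunits was 0.085 after thinning. With quantile normalization the log2 fold change was 0.0072 for cox4i1, -0.023 for cox4i1l, 0.032 for mt-nd1, 0.016 for ndufv1 and 0.024 for sdha. With sample quality weights the log2 fold change was 0.0086 for cox4i1, -0.060 for cox4i1l, 0.065 for cox4i2, 0.016 for cox5ab, -0.043 for cox5b2, -0.022 for mt-atp6, -0.049 for mt-nd2, -0.068 for mt-nd5, 0.0061 for ndufv1 and 0.0091 for sdha. After thinning the log2 fold change was -0.045 for cox4i1l, 0.0075 for cox5ab, 0.0042 for ndufv1 and 0.018 for sdha. With upper-quartile scaling the log2 fold change was -0.0011 for cox7a2l and -0.0028 for mt-nd5. With scaling to the non-mitochondrial total the log2 fold change was 0.0014 for ndufv1 and 0.015 for sdha. The lowest and highest log2 fold changes on leaving out 1 library were cox4i1 -0.080 to 0.060, cox4i1l -0.15 to 0.15, cox4i2 -0.13 to 0.049, cox5ab -0.071 to 0.041, cox7a2a -0.038 to 0.15, cox7a2l -0.048 to 0.062, cox8b -0.24 to 0.11, mt-atp6 -0.088 to 0.11, mt-co1 -0.00053 to 0.17, mt-nd1 -0.12 to 0.055, mt-nd2 -0.13 to 0.16, mt-nd3 -0.039 to 0.22, mt-nd4 -0.065 to 0.19, mt-nd4l -0.039 to 0.20, mt-nd5 -0.10 to 0.13, mt-nd6 -0.18 to 0.019, ndufv1 -0.071 to 0.027, sdha -0.057 to 0.048, sdhc -0.17 to 0.055, uqcr10 -0.36 to 0.11 and uqcrc1 -0.087 to 0.0057. The causes were not tested. Depth limits the weakest members, sdhda and ndufs8b, whose intervals were widest, and the median over all tested genes moved by less than 0.1 under every scaling tried. With the assembly factors left out the members called stayed at 0, and the mitochondrial share had no rRNA or tRNA rows to leave out. A mean of at least 100 gave no value for the weaker members.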
